A study of Mus musculus with 6 samples.

Results

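The interferon response genes are the transcripts that a cell induces after interferon binds its surface receptor. A list of 39 such genes was followed in liver, chosen by name, and 34 of them had probe sets annotated to a single gene symbol on the array. Of these, 31 had at least 2 probe sets above the signal minimum and were tested as gene means, among 15045 genes tested in all. Ifit1, Ifit3 and Oas1g had 1 such probe set each and are described at that level. The signals of Oas1a, Isg15, Usp18, Ifi27l2a and Xaf1 were not analysed here. The 34 genes held 314 probe sets, of which 308 were kept because at least 1 group averaged a log2 signal of 3 or above. The mutant group was 3 male mice homozygous for a mutation of Dhx32 (Dhx32-/-), a gene of the DEAH-box helicase family, and the control group was 3 male mice labelled wild type. All were 6 to 8 weeks old, both groups were identified by genotyping, and neither the background strain nor the nature of the allele is stated. Liver was snap frozen, and its total RNA was hybridised to Affymetrix exon arrays, 1 array per sample. All values are log2 signals as deposited, or means of them, and a difference is mutant minus control.

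Type I interferons act through the receptor Ifnar, which activates a transcription factor complex that holds Stat2 and Irf9. That complex binds a DNA element called ISRE in the promoters of antiviral genes. Interferon gamma, made mainly by T and NK cells, acts through the receptor Ifngr, and its signal reaches promoters at an element called GAS. Cytoplasmic RNA sensors, among them the helicases RIG-I and MDA5, detect viral RNA and start interferon production, and their own genes are interferon-induced. In liver, hepatocytes, Kupffer cells and sinusoidal endothelial cells all respond to interferon. In such whole-tissue RNA, fewer cells of a type and less RNA per cell cannot be told apart.

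Promoter sequence was searched for the letters of ISRE and GAS, and 5 stretches are given. Each is the 150 bases before an annotated start, read 5′ to 3′ in the direction of transcription, from RefSeq on GRCm38.p6. Irf1, Ifit2 and Gbp3 each have a further annotated start, and the 150 bases before it, not shown, held no match. Capitals mark a match to the ISRE letters GAAANNGAAA on either strand or to the GAS letters TTCNNNGAA. Irf1, Igtp and Ifit2 are shown because they are among the 4 members of smallest p, and Ifit1 and Gbp3 are examples of genes with more than 1 ISRE match.
Irf1, chr11:53769864-53770013, plus strand: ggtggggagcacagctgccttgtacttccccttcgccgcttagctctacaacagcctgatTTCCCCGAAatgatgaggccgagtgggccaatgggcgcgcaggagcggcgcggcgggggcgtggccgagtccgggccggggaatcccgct
Igtp, chr11:58199406-58199555, plus strand: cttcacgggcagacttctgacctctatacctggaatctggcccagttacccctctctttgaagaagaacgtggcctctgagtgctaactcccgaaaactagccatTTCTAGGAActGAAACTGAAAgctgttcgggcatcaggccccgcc
Ifit2, chr19:34550544-34550693, plus strand: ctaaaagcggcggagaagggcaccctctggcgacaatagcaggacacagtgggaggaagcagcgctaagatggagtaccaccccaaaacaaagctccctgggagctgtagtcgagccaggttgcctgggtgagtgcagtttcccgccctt
Ifit1, chr19:34640739-34640888, plus strand: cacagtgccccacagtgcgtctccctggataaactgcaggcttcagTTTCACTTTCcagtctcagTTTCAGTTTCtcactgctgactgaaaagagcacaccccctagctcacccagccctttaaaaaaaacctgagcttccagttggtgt
Gbp3, chr3:142559894-142560043, plus strand: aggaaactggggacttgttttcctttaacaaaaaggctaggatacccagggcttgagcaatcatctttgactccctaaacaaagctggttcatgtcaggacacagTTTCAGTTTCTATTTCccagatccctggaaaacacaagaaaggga

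The Irf1 stretch holds a single GAS match whose first base lies at position -90 from the start. In Igtp a GAS match at -45 is followed by an ISRE match at -34. The Ifit2 stretch holds neither, and the window around it has a GAS match further out, at -241. Ifit1 has ISRE matches at -104 and -85, and Gbp3 has overlapping ones at -45 and -39. Windows ran from 250 bases before to 50 after the start. Of the 39 genes, 29 had an entry and were scanned, with Iigp1 on chromosome 18 left out. An ISRE match stood in 15 of the 29 (51.7%), among them Oas1a and Isg15, whose signals were not analysed. Of the 27025 genes with a promoter entry, from which chromosome 18 was not left out, 4.0% held a match. GAS matches stood in 7 of the 29 (24.1%), Oas1a among them, against 9.6% of all genes. A match describes the letters in the window and is not evidence of binding in these livers.

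Dhx32 itself checks the labels. Its gene mean was 6.35, 6.60 and 7.04 in the mutants, against 8.28, 8.85 and 8.62 in the controls. Every mutant lay below every control, and the difference was -1.92 (SE 0.23, limma adjusted p = 0.183 over all genes). Array medians ran from 6.73 to 6.95 in mutants and from 6.81 to 6.92 in controls. Mutant 1 stood apart, with correlations of 0.935 to 0.940 to the other arrays, which correlated with each other at 0.960 to 0.973. The liver label was borne out by hepatocyte markers, 10 of 12 of which were measured, at a mean log2 signal of 12.87 to 13.04 in mutants and 12.89 to 12.98 in controls. With 3 arrays a side, an exact permutation test of a single value cannot go below p = 0.1. Nothing in the labels says more on how the 3 samples of a group were kept or bred. The p-values set a group difference against the spread within groups, and whether the samples were independent is not stated.

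No member of the interferon response passed the test over all genes, and the direction of its median depended on single arrays. Of the 31 genes, 17 were higher in mutants and 14 lower, and 47.5% of all genes tested were higher. The median difference was 0.03, beside -0.01 over all genes. It was -0.16 with array weights and -0.15 without control 1, beside -0.02 over all genes in each of those fits. Irf1, the transcription factor induced by interferon gamma, was lower in every mutant than in any control, and Igtp, an immunity-related GTPase, was higher in every mutant. The smallest adjusted p among the members was 0.896, for Irf1, and that of each other member was 0.943 or more. None of the 31 had an adjusted p under 0.05 in limma (0.00665% of all genes did), and 4 had an unadjusted p under 0.05. These were Igtp and Ubd, higher in mutants (2.01% of all genes in that direction), and Irf1 and Ifit2, lower in mutants (2.20% of all genes). The groups did not overlap in 2 members that were higher and 2 that were lower, against 5.15% and 4.32% of all genes.

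**Figure D1:**
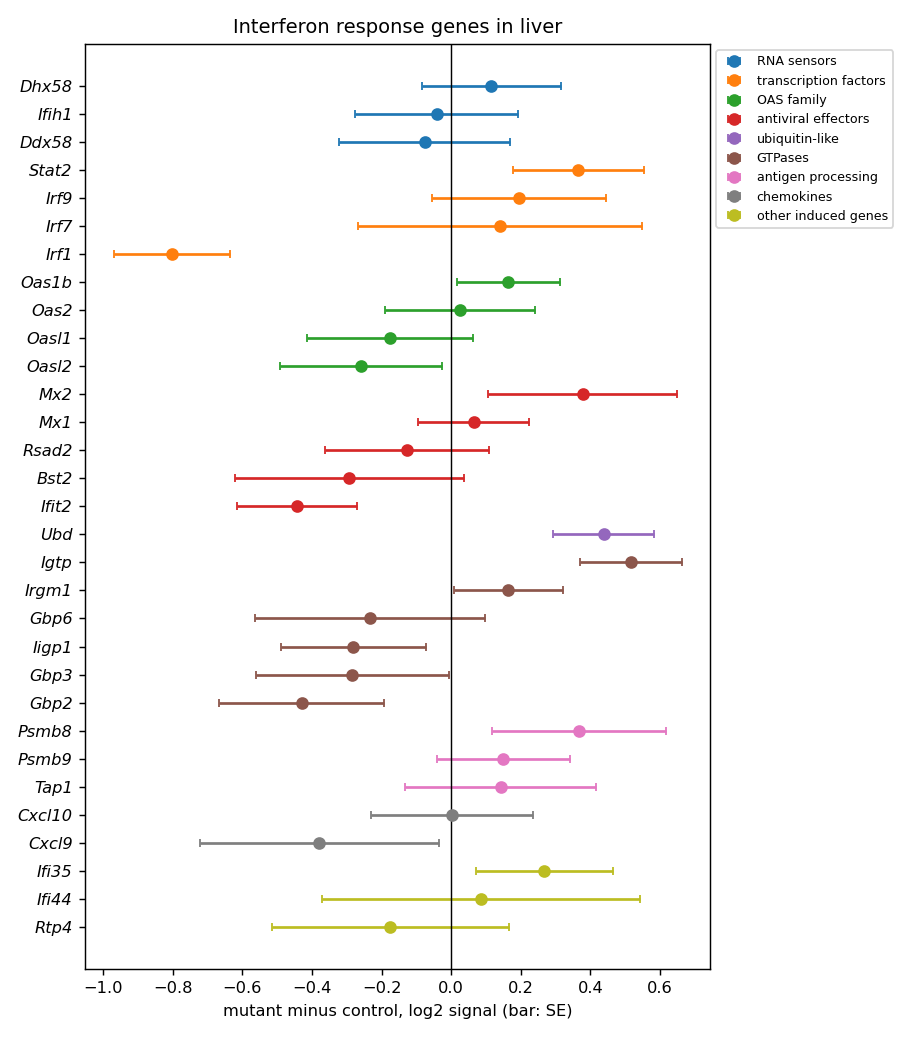
Differences of the 31 gene means, mutant minus control, in log2 signal on the horizontal axis, by gene and coloured by role. Points are differences and bars their SE from the limma fit with 3 arrays per group. Irf1 lies furthest to the left at -0.80 and Igtp furthest to the right at 0.52.

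Irf1 showed the smallest p among the members. Its gene mean was 7.05, 6.71 and 7.03 in mutants, against 7.81, 7.84 and 7.54 in controls. Each mutant lay below each control, and the group means were 6.93 ± 0.19 in mutants and 7.73 ± 0.16 in controls (SD, n = 3 each). The difference was -0.80 (SE 0.17), with a limma adjusted p of 0.896 over all genes. It ran from -0.90 to -0.69 when single arrays were left out, and it was -0.86 without mutant 1. Leaving out the array that stood apart thus left Irf1 on the same side and about as low.

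The other 3 transcription factors of the list had differences above 0, and none passed a test. Irf7 turned to -0.29 and Irf9 to -0.09 with array weights, and Irf7 to -0.33 without control 1 and -0.02 without mutant 1. Stat2, part of the complex that binds ISRE, had the highest signal of the 4 factors, at 9.42, 9.03 and 9.03 in mutants, against 9.07, 8.64 and 8.67 in controls. Control 1 lay above mutants 2 and 3, so the groups overlapped, and the difference was 0.37 (SE 0.19). Irf9, its DNA-binding partner, averaged 8.87 ± 0.41 in mutants and 8.68 ± 0.33 in controls (SD, n = 3 each), and Irf7, which amplifies type I interferon production, averaged 8.41 ± 0.46 in mutants and 8.27 ± 0.84 in controls (SD, n = 3 each). The control values of Irf7 alone reached from 7.32 in control 1 to 8.92 in control 2.

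The immunity-related and guanylate-binding GTPases, which attack the vacuoles of intracellular pathogens and are induced by interferon gamma, divided in direction. Igtp read 7.80, 7.94 and 7.72 in mutants, against 7.21, 7.28 and 7.41 in controls. The groups did not overlap, and the difference was 0.52 (SE 0.15, limma adjusted p = 0.943), with a range of 0.46 to 0.57 when single arrays were left out. Irgm1, a regulator of the same GTPase family, differed by 0.16, averaging 8.73 ± 0.14 in mutants and 8.56 ± 0.15 in controls (SD, n = 3 each).

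The other 4 GTPases were lower in mutants, without passing a test. Gbp2 read 5.69, 5.45 and 5.80 in mutants, against 5.56, 6.42 and 6.24 in controls. Control 1 lay within the mutants, and the difference was -0.43 (SE 0.24). Iigp1, the GTPase with the highest signal, read 9.66, 10.24 and 10.22 in mutants, against 10.58, 10.16 and 10.23 in controls, a difference of -0.28 (SE 0.21). Mutant 1 was lowest and control 1 highest, and the other 4 arrays lay close together. Gbp3 differed by -0.28 and Gbp6 by -0.23, each with its lowest value in control 1 and its 2 highest in controls 2 and 3. With single arrays left out, the difference ran from -0.69 to -0.25 for Gbp2, from -0.38 to -0.09 for Iigp1, from -0.62 to -0.09 for Gbp3 and from -0.64 to -0.02 for Gbp6, the lowest without control 1 for Gbp2, Gbp3 and Gbp6.

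Ubd and Ifit2 completed the 4 genes with an unadjusted p under 0.05. Ubd encodes a ubiquitin-like protein also called FAT10 and was dim, with 2 of its 3 probe sets kept. It read 3.55, 3.39 and 3.55 in mutants, against 3.19, 2.98 and 3.01 in controls, a difference of 0.44 (SE 0.15, limma adjusted p = 0.943). The groups did not overlap, but the difference depended on which probe sets passed the signal minimum. It was 0.26 without that minimum, 0.18 without control 1, 0.13 without control 2 and 0.40 without mutant 1, each over all 3 probe sets.

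Ifit2 encodes an interferon-induced protein with tetratricopeptide repeats that restricts viral translation. It read 5.29, 4.99 and 5.25 in mutants, against 5.38, 5.82 and 5.65 in controls. Mutant 1 lay close under control 1, and the difference was -0.44 (SE 0.17, limma adjusted p = 0.943). All 5 of its probe sets were lower in mutants, 1 of them kept only through the controls. They read the same gene on the same arrays, so their shared direction is not separate evidence from each.

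**Figure D2:**
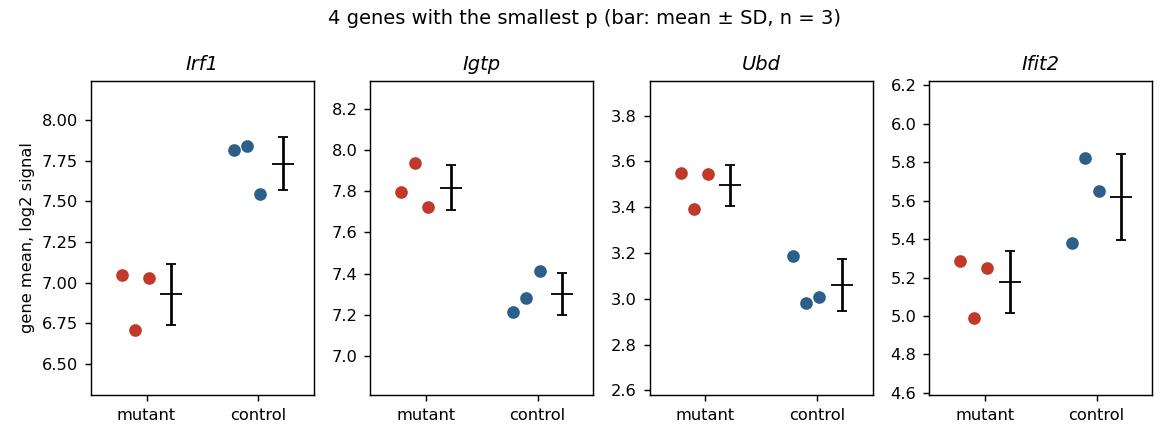
Gene mean log2 signal of Irf1, Igtp, Ubd and Ifit2 on each array, mutants left and controls right in each panel. Points are arrays and bars the mean ± SD of 3, and each panel has its own vertical range. In none of the 4 genes do the groups overlap.

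Its relatives Ifit1 and Ifit3 had 1 usable probe set each. Probe set 5288280 of Ifit1 read 6.56, 6.06 and 7.64 in mutants, against 6.25, 7.45 and 7.31 in controls, a difference of -0.25. Probe set 5129426 of Ifit3 read 4.79, 4.27 and 5.02 in mutants, against 4.28, 6.18 and 6.44 in controls, a difference of -0.94 (SE 0.55). In both, control 1 lay well below controls 2 and 3, and the groups overlapped.

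The remaining antiviral effectors did not separate the groups. Bst2, or tetherin, which holds budding virions at the cell surface, had the highest signal of them, at 9.72, 8.46 and 9.28 in mutants, against 9.0, 9.75 and 9.58 in controls. Mutant 2 was the lowest and control 1 the next lowest, and the difference was -0.29 (SE 0.33). Mx2, a dynamin-like GTPase, read 6.51, 5.62 and 6.28 in mutants, against 5.73, 6.14 and 5.41 in controls, a difference of 0.38 (SE 0.27), with mutant 2 among the controls. Rsad2, or viperin, an antiviral enzyme that makes a chain-terminating nucleotide, differed by -0.13. Mx1, an inhibitor of influenza viruses, differed by 0.06 at a low signal of 4.91 ± 0.05 in mutants and 4.84 ± 0.21 in controls (SD, n = 3 each). With a signal minimum of 5 the difference of Mx1 was 0.52, over 3 probe sets in place of 8. Many laboratory strains carry a defective Mx1 allele, and the strain is not stated here.

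The RNA sensors were close to equal in both groups. Ifih1, which encodes MDA5 and had the highest signal of the 3, read 7.91, 8.02 and 8.50 in mutants, against 7.77, 8.42 and 8.37 in controls, a difference of -0.04 (SE 0.23). Each group spanned more than that difference. Ddx58, which encodes RIG-I, differed by -0.08 (SE 0.25), and Dhx58, which encodes their regulator LGP2, by 0.12 (SE 0.20).

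The oligoadenylate synthetases sense double-stranded RNA and make the messenger that activates RNase L, and none of them passed a test. Oasl1, a member without enzyme activity that had the highest signal of the 4 tested, read 7.42, 7.36 and 7.19 in mutants, against 7.08, 8.02 and 7.39 in controls, a difference of -0.18 (SE 0.24). Oasl2 read 6.71, 6.14 and 6.70 in mutants, against 6.41, 7.07 and 6.86 in controls, a difference of -0.26 (SE 0.23). In both genes control 2 was the highest array.

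Oas1b read 4.83, 4.99 and 4.94 in mutants, against 4.60, 4.78 and 4.88 in controls, a difference of 0.16 (SE 0.15). The flavivirus resistance gene Oas1b is truncated in many laboratory strains. Oas2 differed by 0.03 (SE 0.22). Probe set 5100784 of Oas1g read 5.89, 5.12 and 5.41 in mutants, against 4.77, 2.78 and 5.39 in controls, where control 2 was under the signal minimum of 3 and set the difference of 1.16 (SE 0.62). The Oas1 genes are near-identical copies, so signals among them may be shared.

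The 3 genes of antigen processing were higher in mutants by amounts within the spread of the controls, and Psmb9 and Tap1 changed sign without control 1. Psmb8, an immunoproteasome subunit, read 6.95, 6.49 and 6.78 in mutants, against 5.91, 6.86 and 6.34 in controls, a difference of 0.37 (SE 0.25). Psmb9, its companion subunit and the one of highest signal, read 8.17, 8.00 and 8.05 in mutants, against 7.61, 8.27 and 7.89 in controls, a difference of 0.15 (SE 0.19). In Psmb9 control 2 was above all 3 mutants, and controls 1 and 3 were below them. Tap1, a peptide transporter, differed by 0.14 (SE 0.27).

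The chemokines Cxcl9 and Cxcl10 attract T cells that carry Cxcr3. Cxcl10 had the higher signal and read 7.60, 6.96 and 7.66 in mutants, against 7.17, 7.70 and 7.36 in controls, with a difference of 0.00 (SE 0.23). Cxcl9 averaged 5.85 ± 0.74 in mutants and 6.23 ± 0.27 in controls (SD, n = 3 each), and mutant 2, at 5.0, was more than 1 log2 unit below mutants 1 and 3. Among the other induced genes, Ifi35, a leucine zipper protein, read 8.32, 7.62 and 7.96 in mutants, against 7.60, 7.74 and 7.76 in controls, a difference of 0.27 (SE 0.20). Rtp4, a receptor transporter protein, read 8.30, 7.28 and 8.13 in mutants, against 7.45, 8.43 and 8.37 in controls, a difference of -0.18 (SE 0.34). Ifi44 had the widest spread of the 31, from 5.18 to 6.91 in mutants and from 5.50 to 6.54 in controls.

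The members varied more between mice of a group than most genes did, and they varied together. Their median within-group SD was 0.34, beside 0.23 for all genes. The mean deviation of the 31 genes from the control mean was 0.12, -0.27 and 0.11 on mutants 1 to 3, against -0.28, 0.23 and 0.05 on controls 1 to 3. Mutant 2 and control 1 were thus low and control 2 high, with the other arrays between them. For all genes the same means were -0.09, -0.04 and 0.08 in mutants, against -0.02, 0.02 and 0.00 in controls.

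The order of arrays recurred from gene to gene. Mutant 2 was the lowest mutant in 20 of the 31 genes (64.5%; 33.9% of all genes), and control 1 the lowest control in 23 (74.2%; 40.3% of all genes). Both held in 16 genes (51.6%; 16.2% of all genes). Control 2 was the highest of all 6 arrays in 17 genes. Irf1, Igtp, Ubd, Iigp1 and Stat2 were among those that departed from this order: control 1 was not the lowest control in Irf1, Ubd, Iigp1 or Stat2, and mutant 2 was the highest mutant in Igtp.

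**Figure D3:**
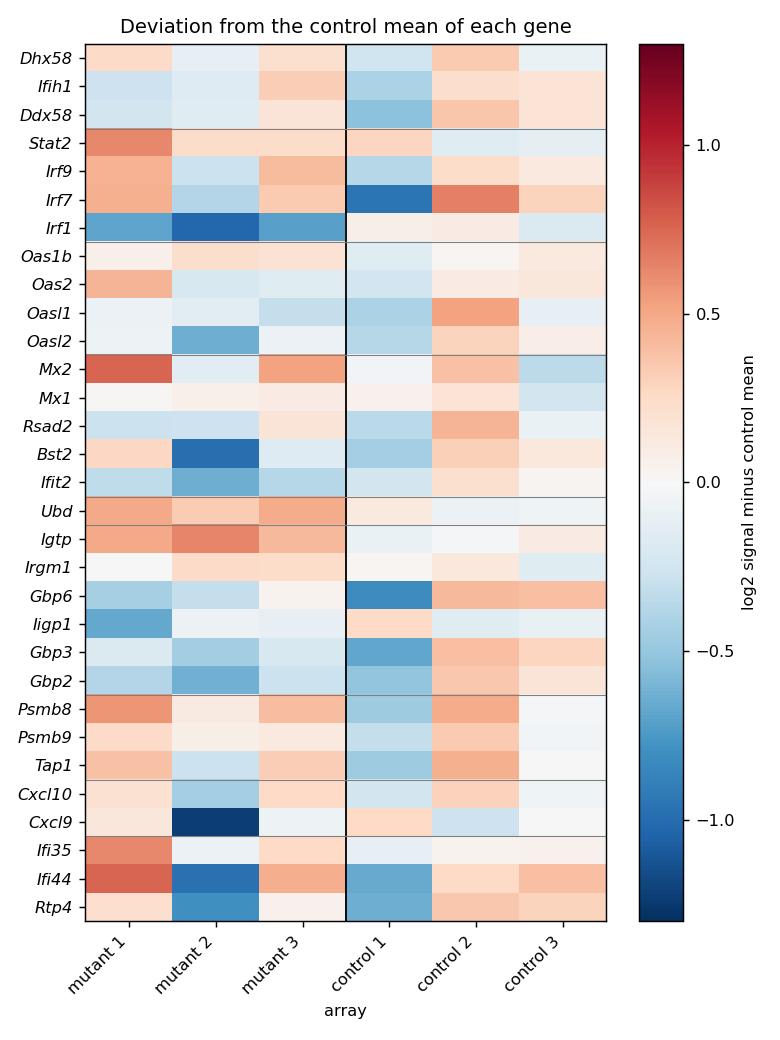
Deviation of each gene (rows, grouped by role between grey lines) from its control mean in log2 signal on each array (columns, mutants left of the black line, controls right of it). Red is higher and blue lower than the control mean. Mutant 2 and control 1 are mostly blue and control 2 mostly red, whereas Irf1 is blue in all 3 mutants and Igtp red in all 3.

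The array pattern was shared by other interferon-induced genes and, in part, by markers of liver cells. In a second list of interferon-induced genes, 45 of 53 were measured, and their mean deviation was 0.06, -0.23 and 0.09 in mutants, against -0.24, 0.18 and 0.06 in controls. Markers of sinusoidal endothelial cells (7 of 7 measured) read -0.03, -0.62 and 0.26 in mutants, against -0.32, 0.10 and 0.22 in controls, at mean signals of 8.27 to 9.15 in mutants and 8.57 to 9.12 in controls. Kupffer cell and macrophage markers (11 of 12) read 0.57, -0.26 and -0.22 in mutants, against -0.31, 0.14 and 0.17 in controls, at signals of 7.82 to 8.65 in mutants and 7.77 to 8.24 in controls. Mutant 2 and control 1 were thus also the lowest array of their group in both marker lists. Hepatocyte markers held the same lowest arrays at smaller deviations, with -0.04, -0.08 and 0.10 in mutants, against -0.05, 0.02 and 0.04 in controls. Receptor and signalling genes of the pathway did so too, with 0.15, -0.14 and 0.09 in mutants, against -0.07, 0.05 and 0.02 in controls. The part of these cell types in the spread of the interferon genes was not tested.

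In no list of blood-borne cell markers were mutant 2 and control 1 both the lowest array of their group, but parts of the order recurred. Mutant 2 was the lowest mutant in B cell markers (-0.32), and control 1 the lowest control in plasmacytoid dendritic cell markers (-0.13). Control 2 was the highest array in plasmacytoid dendritic cell markers (0.16) and in T and NK cell markers (0.05). T and NK cell markers (12 of 12 measured), from the cells that make interferon gamma, had mean signals of 5.21 to 5.30 in mutants and 5.32 to 5.41 in controls, with 8 of 12 lower and 4 higher in mutants and differences of -0.56 to 0.45. B cell markers (4 of 5) ran from 4.97 to 5.51 in mutants and from 5.25 to 5.33 in controls, and markers of plasmacytoid dendritic cells (5 of 6), which make type I interferon, from 5.89 to 6.06 in mutants and from 5.89 to 6.17 in controls. Neutrophil markers (8 of 9) deviated by 0.99, 0.22 and 0.00 in mutants, against 0.02, -0.14 and 0.11 in controls. Bile duct markers (5 of 5) deviated by 0.66, -0.11 and 0.24 in mutants, against 0.11, -0.01 and -0.09 in controls. Acute phase genes (10 of 12), which hepatocytes induce after interleukin 6, deviated by 2.43, 1.15 and 0.67 in mutants, against 0.11, -0.12 and 0.02 in controls. The acute phase list thus separated the groups in the same livers in which Irf1 was lower. The mean of the T and NK cell markers did so too, at 5.21 to 5.30 in mutants against 5.32 to 5.41 in controls. The part of either list in the Irf1 difference was not tested.

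**Figure D4:**
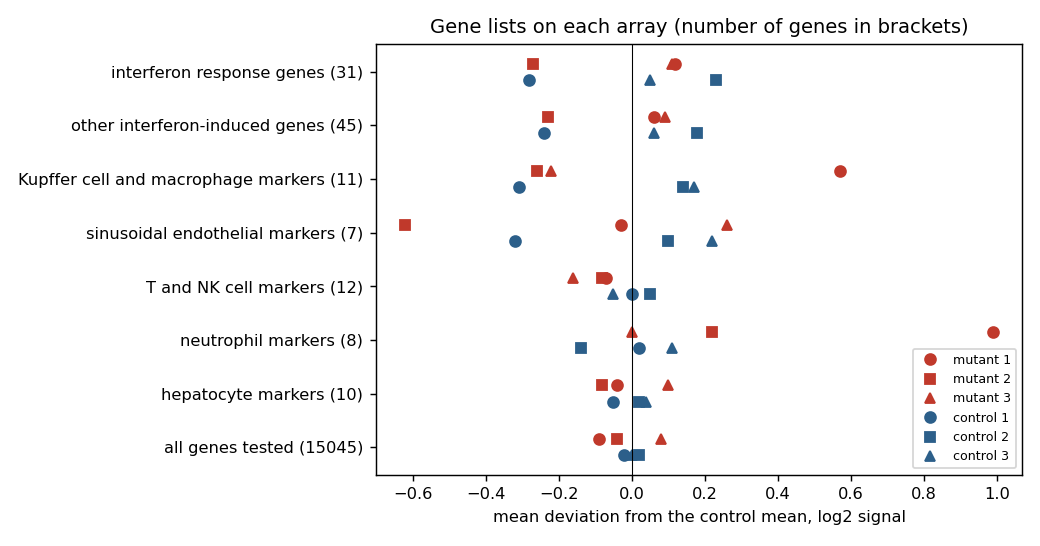
Mean deviation from the control mean, in log2 signal, of 8 gene lists (rows, number of genes in brackets) on each array, with mutants in red above controls in blue and a symbol for each replicate. The interferon response genes lie at -0.27 to 0.12 in mutants and -0.28 to 0.23 in controls, and the neutrophil markers reach 0.99 in mutant 1.

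Irf1 was also the member whose single probe sets differed most. Among the 308 kept probe sets of the list, 163 were higher and 145 lower in mutants, and none had an adjusted p under 0.05 over all probe sets (0% of the 191663 tested). At an unadjusted p under 0.05 in limma there were 4 higher (1.90% of all probe sets) and 12 lower (2.18% of all), in 9 genes, and 7 of these 16 belonged to Irf1. All 13 probe sets of Irf1 were lower in mutants, and in 7 the groups did not overlap. The share of all probe sets without overlap was not counted, so the 7 cannot be set against it. The 13 read the same gene on the same arrays, so their shared direction is not separate evidence from each probe set.

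Probe set 5391419 of Irf1 read 2.31, 4.39 and 4.52 in mutants, against 6.25, 6.05 and 6.04 in controls. Mutant 1 was under the signal minimum, and the difference was -2.37 (SE 0.55, limma adjusted p = 0.994). Without this probe set the gene difference of Irf1 was -0.67. Probe set 4970975 read 7.35, 7.33 and 7.64 in mutants, against 8.78, 8.91 and 8.13 in controls, a difference of -1.17 (SE 0.29). Probe set 4910136 read 7.88, 7.53 and 8.10 in mutants, against 8.56, 9.13 and 8.89 in controls, a difference of -1.03 (SE 0.28). At the other end, probe set 4379307 read 8.37, 8.32 and 7.76 in mutants, against 8.62, 8.11 and 8.21 in controls, and its groups overlapped.

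**Figure D5:**
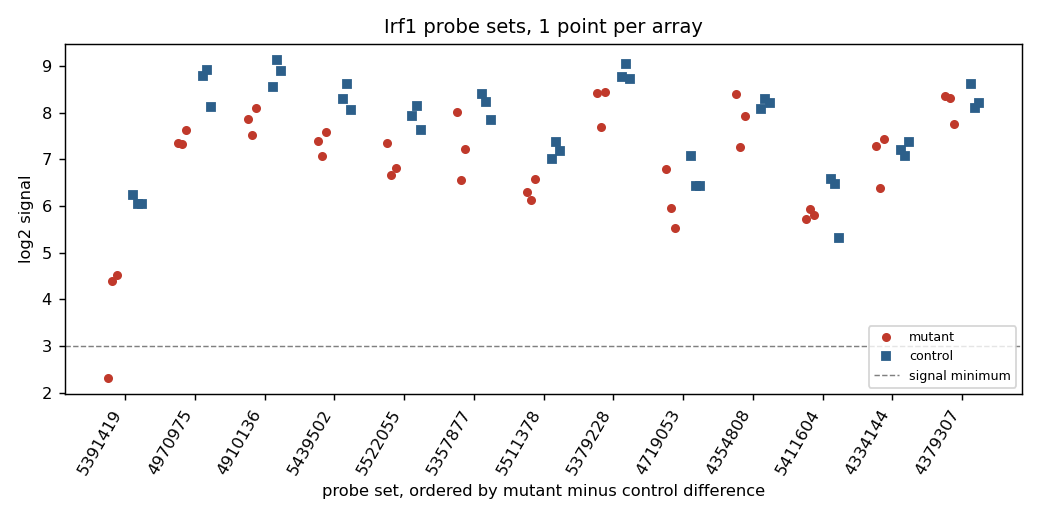
Log2 signal of the 13 probe sets of Irf1 on each array, ordered from the most negative difference on the left. Red circles are mutants and blue squares controls, and the dashed line is the signal minimum of 3. Probe set 5391419 lies at 2.31 to 4.52 in mutants and 6.04 to 6.25 in controls.

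The 6 member probe sets of smallest p held 3 outside Irf1. Probe set 4436250 of Oas1b read 4.40, 5.08 and 4.45 in mutants, against 3.33, 3.49 and 3.51 in controls, a difference of 1.20 (SE 0.28). Probe set 4702125 of Iigp1 read 4.82, 4.97 and 5.60 in mutants, against 6.10, 6.24 and 6.40 in controls, a difference of -1.12 (SE 0.29). Probe set 5522928 of Psmb8 read 8.28, 7.91 and 8.07 in mutants, against 7.0, 7.41 and 7.02 in controls, a difference of 0.95 (SE 0.26). The groups did not overlap in any of the 3, while the gene means of all 3 genes did, and each had a limma adjusted p of 0.994. These probe sets were picked for their small p, which favours groups that do not overlap. The share of all probe sets without overlap was not counted, so their separation cannot be set against it.

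Exon usage asks whether the probe sets of a gene differ unequally between the groups. No member had an adjusted p under 0.05 in limma's F-test (0.21% of the 14310 genes tested did). One member, Irf1, had an unadjusted p under 0.05 (4% of all genes), with an adjusted p of 0.671. The next in order of p were Mx1, Oas1b, Iigp1 and Bst2, each with an adjusted p of 1 in that test. When the probe sets of each gene were combined by the Simes method, Irf1 was called (adjusted p = 0.0462; 0.908% of all genes were called) through probe set 5391419. In mutant 1 that probe set lay under the signal minimum, and without that array the adjusted p was 0.959. It was 0.00428 without mutant 2 and 0.019 without mutant 3, whereas the call was also lost without any 1 control (0.240 to 0.365).

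The wider pathway gave no call over all genes either. Of 19 interferon ligand genes, 7 were measured, 3 higher and 4 lower, at low signals throughout. Ifnk, interferon kappa, read 4.55, 4.03 and 5.29 in mutants, against 2.91, 3.50 and 3.66 in controls, a difference of 1.27 (SE 0.33, limma adjusted p = 0.943) over 2 probe sets. Every mutant lay above every control (5.15% of all genes), with control 1 under the signal minimum. The difference was 0.82 without that minimum.

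Of 27 receptor and signalling genes, 26 were measured, with 15 higher and 11 lower in mutants and a median difference of 0.08. Ikbke, a kinase that phosphorylates interferon regulatory factors, read 9.02, 8.04 and 7.71 in mutants, against 7.66, 7.64 and 7.41 in controls, a difference of 0.68 (SE 0.31). Again every mutant lay above every control (5.15% of all genes). Mutant 1 was about 1 log2 unit above mutants 2 and 3, and the difference was 0.30 without mutant 1. Tlr3, an endosomal receptor for double-stranded RNA, differed by -0.36 (SE 0.21), Irf2, a repressor that competes with Irf1, by -0.42 (SE 0.24), and Cgas, a sensor of cytoplasmic DNA, by 0.30 (SE 0.18). Over the alternatives run these 3 ranged from -0.51 to -0.17, from -0.60 to -0.22 and from 0.18 to 0.53.

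In the second list of interferon-induced genes, 21 of 45 were higher and 24 lower, with a median difference of -0.04. Gbp4, a further guanylate-binding protein, read 5.97, 6.11 and 6.22 in mutants, against 6.42, 6.93 and 6.88 in controls, a difference of -0.64 (SE 0.18). Cxcl11, a further ligand of Cxcr3, read 5.41, 6.16 and 5.85 in mutants, against 6.56, 6.36 and 6.24 in controls, a difference of -0.58 (SE 0.21). In both genes every mutant lay below every control (4.32% of all genes), and each had an adjusted p of 0.943. Cd274, which encodes the checkpoint ligand PD-L1 and is a target of Irf1, differed by -0.48 (SE 0.23). Ifitm3, which blocks viral fusion, differed by 0.32 (SE 0.16), with every mutant above every control (5.15% of all genes). Without mutant 1 the difference was -0.58 for Gbp4, -0.38 for Cxcl11, -0.29 for Cd274 and 0.23 for Ifitm3. With medians over probe sets it was -1.04 for Gbp4, -0.79 for Cxcl11, -0.48 for Cd274 and 0.49 for Ifitm3.

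Among the 31 members, 13 are induced mainly by interferon gamma. Their median difference was 0.00, with 7 higher and 6 lower, whereas the other 18 had a median of 0.05, with 10 higher and 8 lower. The 13 thus held both the lowest value, that of Irf1, and the highest, that of Igtp.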

How the data were processed

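Per the labels' protocols, liver RNA extracted with Trizol was amplified and biotin-labelled with Affymetrix kits. The values deposited by the authors are log2 signals of 204531 probe sets on 6 arrays. The submitters' processing notes name Affymetrix Expression Console 1.1, RMA, Partek 6.4 and mm9 without roles, so background correction, quantile scaling and probe summary cannot be separated here. RMA compresses differences of dim probe sets. Single symbols came from the platform annotation and were updated through a RefSeq table of GRCm38.p6, which differs from mm9 and served for names, chromosomes and promoters.

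Probe sets with a group mean of 3 or more were kept (191663, with 12868 left out). Gene values were means over at least 2 kept probe sets. Groups were compared with limma 3.58.1 (lmFit, eBayes) in R 4.3.3, adjusted by Benjamini-Hochberg over all genes or probe sets, at a threshold of 0.05. Exon usage used diffSplice on 14310 genes with at least 3 probe sets. The gene-level fit and the exon usage F-test were also run on simulated data with known shifts, and the other steps were not. The number of arrays, 3 per group, limits the precision. Members and lists were chosen with earlier results of these data known.

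Values on every array are given for the 12 members of smallest p, the member of highest signal in each role, the 6 member probe sets of smallest p and the listed pathway genes of smallest p. The Oas1g, Ifit1 and Ifit3 probe sets, probe set 4379307 of Irf1 and the members that departed from the common array order were singled out after their values were seen. Alternatives were other signal minimums, a median over probe sets, quantile normalization, median centring, a trend, array weights, a replicate block, Simes-combined exon tests and leaving out each array.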

Additional observations from a re-analysis of the deposited data

How the results depend on the processing

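No member of the interferon response was called over all genes, and no member probe set over all probe sets, under any of the alternatives run; the smallest adjusted p of a member gene over them was 0.299, for Irf1 with array weights. The count of members with an unadjusted p under 0.05 was 4 (4.21% of all genes), and became 7 with array weights (8.09% of all genes) and 2 with a signal minimum of 5 (4.50%, with 30 members tested). It ran from 2 to 7 when single arrays were left out, with 7 without control 1 (6.43% of all genes) and 2 without control 3 (2.15%), so the share of all genes moved with these settings too. The cause was not tested. The median difference of the members ran from -0.16 to 0.13. Dhx32 passed the threshold with array weights (-1.98, adjusted p = 0.0273), median centring (-1.87, adjusted p = 0.0339) and quantile normalization (-1.88, adjusted p = 0.0411). Under the Simes method 1 member, Irf1, was called for exon usage, and none under the F-test.

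Of the 31 members, 12 kept their sign under every one of the 14 alternatives in which they were tested, among them Irf1, Igtp, Ifit2, Stat2, Gbp2 and Ubd (13 alternatives, since it had no probe set above a minimum of 5), and 19 changed it under at least 1. With array weights the difference was -0.23 for Cxcl10, -0.03 for Dhx58, -0.51 for Ifi44, -0.29 for Irf7, -0.09 for Irf9, -0.15 for Oas2 and -0.14 for Tap1. With medians over probe sets it was -0.01 for Cxcl10, -0.03 for Dhx58, 0.00 for Gbp6, -0.09 for Mx1 and 0.09 for Rsad2. Ifih1 was 0.00 after quantile normalization and after median centring, and Oas1b was -0.15 with a signal minimum of 5. When single arrays were left out, the difference ran from -0.58 to 0.05 for Bst2, -0.12 to 0.22 for Cxcl10, -0.64 to 0.04 for Cxcl9, -0.34 to 0.10 for Ddx58, -0.01 to 0.29 for Dhx58, -0.25 to 0.61 for Ifi44, -0.25 to 0.07 for Ifih1, -0.33 to 0.47 for Irf7, -0.05 to 0.15 for Mx1, -0.18 to 0.14 for Oas2, -0.38 to 0.09 for Oasl1, -0.45 to 0.02 for Oasl2, -0.01 to 0.32 for Psmb9, -0.30 to 0.09 for Rsad2, -0.49 to 0.14 for Rtp4 and -0.09 to 0.37 for Tap1.

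The arrays are numbered 1 to 3 in both groups. Deviations of same-numbered arrays correlated at 0.10, -0.11 and 0.18 over genes, and those of differently numbered arrays at -0.30 to 0.21. The labels state no pairing, and these correlations cannot show whether the samples were paired. With the number as a replicate block, 3 members had an unadjusted p under 0.05 (Igtp, Irf1 and Ubd; 5.94% of all genes) and 0 were called.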
